A study of Mus musculus with 12 samples.

Results

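The nuclear-encoded subunits of oxidative phosphorylation were described in C18-4, a line of spermatogonial stem cells from the mouse. Members were the genes whose symbols match the naming patterns of the respiratory complexes (Nduf followed by a, b, c, s or v and a digit; Sdha to Sdhd; Uqcr; the Cox families 4 to 8; and Atp5), with no measured value used in the choice. They numbered 85 of 17576 genes in the deposited table: 38 of complex I, 4 of complex II, 8 of complex III, 18 of complex IV and 17 of ATP synthase. The choice by name took in Ndufa11b, annotated as a transcribed pseudogene. It also placed Atp5s, which is annotated as Dmac2l, with ATP synthase. Ndufa4 and its paralogue Ndufa4l2 were counted with complex IV, where the Ndufa4 protein is now placed. Of the 85, 79 reached a value of 1 in at least 3 libraries and were tested. The other 6 were Ndufa11b, Ndufb4b, Cox4i2, Cox6b2, Cox7b2 and Ndufa4l2, none of which was above 1.38 in any library.

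Total RNA was sequenced in 12 libraries, 3 in each of 4 groups, all from C18-4 cells labelled with the strain IRC mouse. The 8276OV cells received virus for overexpression of lncRNA8276, a long noncoding RNA, and the 8276KD cells received virus for its inhibition. The 5NC and 3NC groups were read as their control viruses, since the design text lists 5NC beside overexpression and 3NC beside knockdown; the labels do not spell these names out. Whether the 3 libraries of a group are separate cultures is not labelled, and p-values therefore reflect only how far these libraries spread, which may be a technical spread. The level of lncRNA8276 was not analysed here, so the labels were not checked by it.

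Mitochondria make ATP by passing electrons from NADH and succinate down a chain of complexes to oxygen. Complexes I (NADH dehydrogenase) and II (succinate dehydrogenase) feed electrons to coenzyme Q, complex III passes them to cytochrome c and complex IV (cytochrome c oxidase) to oxygen, while complexes I, III and IV pump protons whose return drives ATP synthase. Most subunits are encoded in the nucleus and a few in mitochondrial DNA, and cultured spermatogonial stem cells are generally described as leaning on glycolysis as well as on respiration.

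The column sums of the values, taken to be FPKM (fragments per length of transcript and sequencing depth), ranged from 533099 to 561940, and between 10929 and 11165 genes reached 1 per library. A rough estimate from the lowest values put the depth between 11200000 and 12400000 fragments. Few germ cell markers were present: of 18 listed, 16 were in the table, 5 reached 1 in any library, and Ddx4, Dazl, Gfra1, Ret and Zbtb16 stayed at or below 0.17 in every library. The summed level of the list ran from 89.5 to 98.6 in 3NC, 101 to 105 in 5NC, 129 to 150.0 in 8276KD and 82.5 to 93.5 in 8276OV. Of the 5 genes that reached 1, Etv5, Itga6, Epcam and Id4 did not pass 7.89, 6.08, 2.73 and 2.09. Most of the sum therefore came from the remaining gene and does not describe the list as a whole. Collagen and smooth muscle genes of the myoid and fibroblast list (7 of 7 in the table) summed to 328 to 343 in 3NC, 466 to 470.4 in 5NC, 343 to 426 in 8276KD and 304 to 385 in 8276OV. Wt1, a Sertoli cell gene, read 49.0 to 62.8, whereas Sox9 stayed at or below 0.02, and the Leydig, macrophage and endothelial lists summed to at most 2.03, 6.03 and 1.15. The part of these markers in the members' results was not tested, and in bulk RNA fewer cells of a type and less RNA per cell cannot be told apart.

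Most members were abundant transcripts. The median level of the 79 tested members over all libraries was 143, against 13.9 for the 11360 genes tested, and 37 of them were among the 500 highest genes. Atp5b, the catalytic beta subunit of ATP synthase, was the highest member with a mean of 720.2, and Cox6a2, a heart and muscle isoform, was the lowest of those tested with a mean of 1.05. Strand use in the counting is not given in the sources used here, and 26 members overlap another gene on the opposite strand and 5 on the same strand, among them Ndufa13, Ndufa9, Ndufs1, Uqcrb, Uqcrc2, Cox4i1, Cox6c, Atp5a1, Atp5d and Atp5l; their reads and those of the neighbour cannot be told apart. Together the members summed to 17264 ± 117 in 3NC, 16514 ± 223 in 5NC, 17715 ± 453 in 8276KD and 18323 ± 476 in 8276OV (SD, n = 3 each). That was 3.12% ± 0.022 in 3NC, 3.07% ± 0.021 in 5NC, 3.21% ± 0.028 in 8276KD and 3.31% ± 0.049 in 8276OV (SD, n = 3 each) of the column sum.

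**Figure D1:**
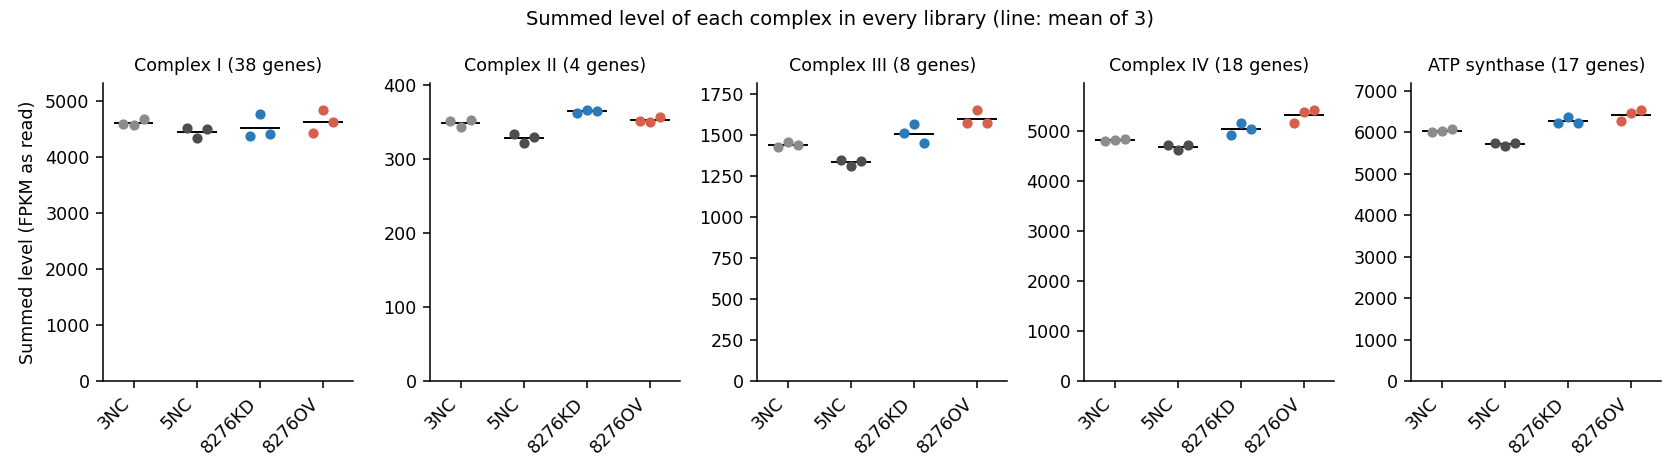
Summed level of the genes of each complex (vertical axis, FPKM as read, starting at 0) in every library; each point is a library and the black line is the mean of the 3 libraries of a group. The 3 8276OV points of complexes II, III and IV and of ATP synthase lie above the 3 points of 5NC, whereas those of complex I overlap.

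By complex, the summed level in 8276OV over that in 5NC was 1.04 for complex I, 1.07 for complex II, 1.20 for complex III, 1.14 for complex IV and 1.12 for ATP synthase. The 3 libraries of each group did not overlap except for complex I (exact permutation test, two-sided, p = 0.3); elsewhere p was 0.1, the smallest that 3 libraries against 3 can give. In 8276KD over 3NC the ratios were 0.978, 1.04, 1.05, 1.05 and 1.04 in the same order, with overlapping libraries for complexes I (exact p = 0.5) and III (exact p = 0.2). For complex II only Sdhd had a higher mean, 101 in 3NC and 122 in 8276KD, while Sdha, Sdhb and Sdhc averaged slightly lower in 8276KD. The 5NC libraries summed lower than the 3NC libraries for every complex, with ratios of 0.964, 0.942, 0.927, 0.971 and 0.947 (exact p = 0.1 for each). None of these ratios was scaled to the column sums, so each also holds any difference in them. The column sums were likewise lower in 5NC (533099 to 539746) than in 3NC (552310 to 554527). They ran from 545883 to 557679 in 8276OV and from 543648 to 561940 in 8276KD. Complex III thus gave both the highest ratio in 8276OV over 5NC and the lowest in 5NC over 3NC. Both ratios use the same 5NC libraries and depend on a few abundant subunits. Uqcrb averaged 357 in 5NC and 561 in 8276OV, and Uqcrh 238 in 3NC, 148 in 5NC and 231 in 8276OV. In 8276OV 4 of the 8 subunits were called higher and 4 lower (30.3% and 44.1% of all genes).

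Overexpression against its control was the comparison with the most members called. Of 79 members tested, 44 were higher and 24 lower in 8276OV than in 5NC at an adjusted p under 0.05 from limma, while 30.3% of all genes tested were higher and 44.1% lower. The members' median log2 fold change, on the scale of log2(value + 1) as for every fold change given here, was 0.22, against -0.088 for all genes. For 67 members the 3 libraries of 8276OV lay entirely above (43) or below (24) the 3 of 5NC, as did those of 32.0% and 45.6% of all genes. After correction for transcript GC content 53 of 78 members were higher and 15 lower (27.1% and 27.2% of all genes), and after quantile normalization, which moved the median of all genes from -0.088 to 0.029, 39 were higher and 26 lower (39.0% and 35.2%).

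Knockdown against its control changed fewer members. Of 79, 20 were higher and 8 lower in 8276KD than in 3NC, against 20.0% and 19.5% of all genes, with a median log2 fold change of 0.016 against -0.0048. For 29 members the libraries of the groups did not overlap, 21 of them higher and 8 lower in 8276KD (24.6% and 25.0% of all genes). The split between rises and falls depended on the scaling and on a library: 23 were higher and 10 lower after GC correction (25.5% and 23.5% of all genes), 12 and 16 after correction for GC content and length (25.4% and 23.6%), and 9 and 15 after quantile normalization (20.3% and 18.7%). Without 8276KD replicate 2 the counts were 20 and 20 (22.3% and 21.8%).

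**Figure D2:**
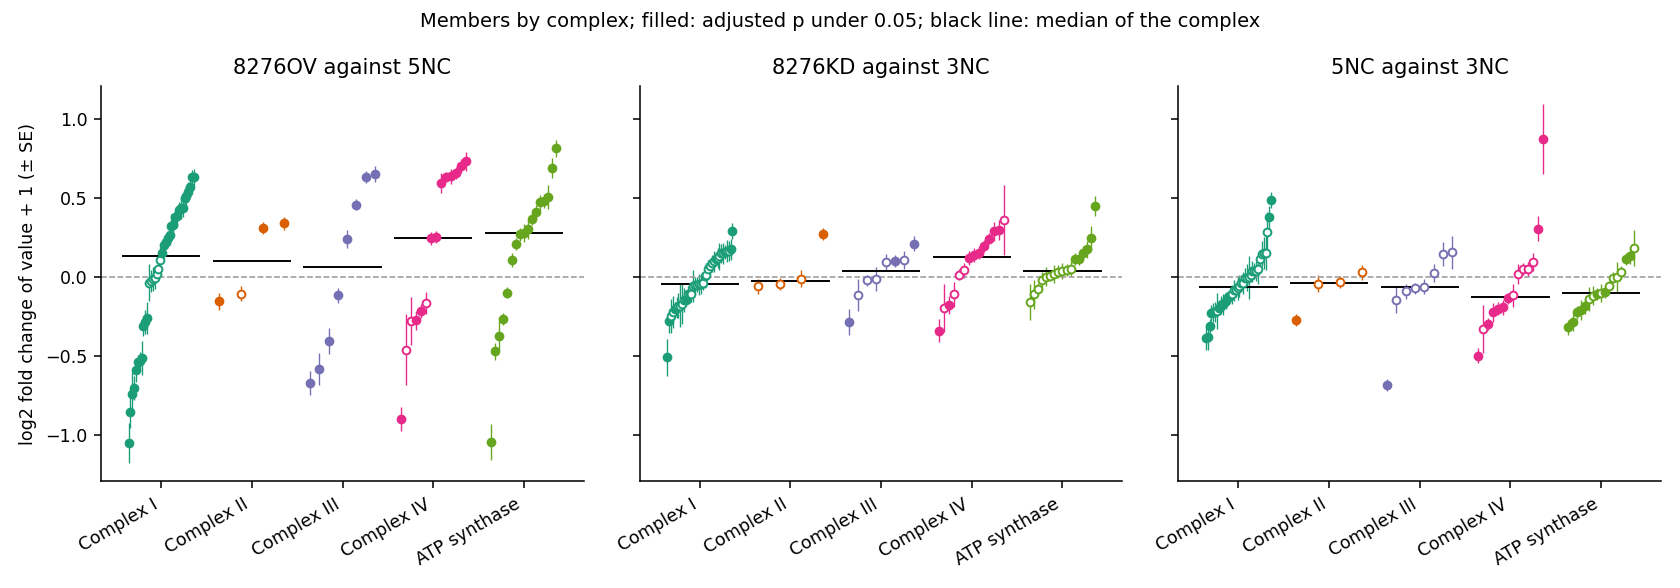
Log2 fold change of value + 1 (vertical axis, bars are limma standard errors) of the 79 tested members by complex in 3 comparisons; filled points have an adjusted p under 0.05 and black lines are medians of a complex. In 8276OV against 5NC members of every complex spread to both sides of 0, from -1.05 to 0.81, and in 8276KD against 3NC the range was -0.51 to 0.45.

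Complex I takes electrons from NADH through a chain of core subunits, around which accessory subunits are packed. In 8276OV the 7 tested core subunits gave 3 rises and 4 falls (median log2 fold change -0.54), and the 29 accessory subunits 15 rises and 7 falls (median 0.20). Of all genes tested 30.3% were higher and 44.1% lower. The core and accessory groups were drawn up after the values were known and are given as a description. Ndufs7, which carries the last iron-sulfur cluster before coenzyme Q, read 65.5, 63.6 and 73.7 in 3NC, 92.3, 75.9 and 79.5 in 5NC, 53.1, 70.4 and 57.6 in 8276KD and 31.6, 46.2 and 41.3 in 8276OV. The 3 8276OV libraries were the lowest of all, below every control and knockdown library. Its log2 fold change was -1.05 ± 0.13 (SE; adjusted p = 7.2e-06) in 8276OV against 5NC, and -0.17 in 8276KD against 3NC, where the groups overlapped. The core subunits called lower also included Ndufv1, the flavoprotein that accepts electrons from NADH (-0.70), and Ndufs8, another iron-sulfur protein (-0.59).

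The core subunits that rose were Ndufs1, the large iron-sulfur subunit of the NADH arm, Ndufv2 and Ndufs3. Ndufs1 read 48.5, 49.5 and 44.8 in 3NC, 43.3, 45.3 and 43.5 in 5NC, 49.3, 41.8 and 47.5 in 8276KD and 58.9, 55.4 and 59.3 in 8276OV. Its 8276OV libraries stood above the other 9, a log2 fold change of 0.39 ± 0.061 (SE; adjusted p = 6.7e-05) over 5NC, with -0.045 in the knockdown comparison. Ndufv2 and Ndufs3 rose by 0.38 and 0.16; Ndufs3 has a near copy in the genome, so its reads are uncertain.

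Among accessory subunits of complex I, Ndufs4, whose loss in humans is a known cause of Leigh syndrome, rose in both arms. It read 46.4, 44.9 and 45.3 in 3NC, 43.6, 45.5 and 43.7 in 5NC, 54.7, 54.5 and 58.7 in 8276KD and 72.7, 64.3 and 70.9 in 8276OV. Every 8276KD library was above every control library and every 8276OV library was higher still, with log2 fold changes of 0.63 ± 0.051 (SE; adjusted p = 3.3e-07) in 8276OV and 0.29 ± 0.051 (SE; adjusted p = 5.7e-04) in 8276KD. Ndufa9, a subunit at the junction of the matrix and membrane arms, read 127, 129.6 and 131 in 3NC, 97.0, 108 and 107 in 5NC, 124, 124 and 128 in 8276KD and 158, 160.5 and 167 in 8276OV. It rose by 0.63 ± 0.045 (SE; adjusted p = 1.6e-07) in 8276OV, whereas 8276KD and 3NC overlapped (-0.037, adjusted p = 0.55). Ndufa13, also known as Grim19, fell by 0.85 in 8276OV, and the membrane-arm subunit Ndufb8 fell by 0.53. Of the 2 largest falls in 8276KD, Ndufb4c (log2 fold change -0.51) is a close relative of Ndufb4 with which reads may be shared, and Ndufv3, a small subunit beside the flavoprotein, fell by 0.28. Ndufc1 rose by 0.16 in 8276KD and by 0.22 in 8276OV.

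Complex II is both a respiratory complex and an enzyme of the citric acid cycle, and all 4 of its subunits are nuclear. Sdhd, a membrane anchor, read 103, 100.1 and 99.1 in 3NC, 80.5, 83.4 and 86.3 in 5NC, 124, 118 and 124 in 8276KD and 107, 104 and 106 in 8276OV. The 5NC libraries were the lowest and the 8276KD libraries the highest, and no 2 groups overlapped. Its log2 fold change was 0.34 ± 0.04 (SE; adjusted p = 6.5e-06) in 8276OV against 5NC and 0.27 ± 0.04 (SE; adjusted p = 1.6e-04) in 8276KD against 3NC. Against 3NC in place of 5NC the 8276OV value was 0.068 (adjusted p = 0.14). Sdha, the flavoprotein that oxidises succinate, rose in 8276OV by 0.31 ± 0.039 (SE; adjusted p = 9.4e-06) and was -0.042 in 8276KD. Sdhc, the other anchor, fell by 0.15 in 8276OV. Sdhb, the iron-sulfur subunit, was not called in either arm (-0.11 and -0.059), though after GC correction it was called higher in 8276OV (0.29).

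Complex III divided evenly in 8276OV, with 4 of 8 subunits higher and 4 lower (30.3% and 44.1% of all genes). Its median log2 fold change of 0.062 turned to -0.055 after correction for GC content and length and to -0.014 after quantile normalization. Uqcrh, the acidic hinge protein that helps dock cytochrome c, read 237, 240.2 and 237 in 3NC, 151, 148 and 146 in 5NC, 265, 254 and 248 in 8276KD and 222, 235 and 234 in 8276OV. It was the 5NC libraries that stood apart, below every other library, while 3NC, 8276KD and 8276OV lay close together. Accordingly the log2 fold change was 0.63 ± 0.038 (SE; adjusted p = 5.6e-08) against 5NC and -0.045 (adjusted p = 0.29) against 3NC. Uqcrb, a small subunit that binds coenzyme Q, read 371, 392 and 353 in 3NC, 345, 352 and 373 in 5NC, 457, 413 and 424 in 8276KD and 572, 554 and 556 in 8276OV. Both manipulated groups were above both controls, by 0.65 ± 0.049 (SE; adjusted p = 2.2e-07) in 8276OV and 0.21 ± 0.049 (SE; adjusted p = 0.0038) in 8276KD, although a near copy of Uqcrb makes its reads uncertain and the 8276OV value was 0.0095 after correction for GC content and length.

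The core proteins of complex III went opposite ways in 8276OV. Uqcrc2 rose by 0.46 ± 0.036 (SE; adjusted p = 2.9e-07), from 83.1 to 85.1 in the 5NC libraries to 114 to 118 in 8276OV. Uqcrc1, its partner, fell by 0.67 and read 76.3, 73.2 and 76.2 in 3NC, 86.9, 81.8 and 81.7 in 5NC, 66.8, 83.7 and 74.1 in 8276KD and 47.7, 57.1 and 52.0 in 8276OV. The 8276OV libraries were the lowest 3 of the 12. Uqcrfs1, the Rieske iron-sulfur protein, fell by 0.12 (adjusted p = 0.045), and the small subunit Uqcrq fell by 0.58. Uqcr11, another small subunit, was called lower in both arms (-0.40 and -0.28), but after GC correction it was called higher in 8276OV (0.23).

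Complex IV had more rises than falls in both arms. Of its 14 tested members 8 were higher and 3 lower in 8276OV (30.3% and 44.1% of all genes). In 8276KD 7 were higher and 2 lower (20.0% and 19.5%). After GC correction the counts were 10 and 2 in 8276OV (27.1% and 27.2%) and 6 and 1 in 8276KD (25.5% and 23.5%). Ndufa4 read 547, 558 and 549 in 3NC, 499.5, 500.4 and 506 in 5NC, 660.0, 633 and 666 in 8276KD and 771, 787 and 781 in 8276OV. The groups followed each other without overlap from 5NC through 3NC and 8276KD to 8276OV, with log2 fold changes of 0.63 ± 0.033 (SE; adjusted p = 3.3e-08) in 8276OV and 0.24 ± 0.033 (SE; adjusted p = 7.0e-05) in 8276KD. Cox6b1, which faces the intermembrane space and joins the monomers of the dimer, read 447, 446 and 445 in 3NC, 296, 313 and 340.3 in 5NC, 474, 444 and 460.5 in 8276KD and 479, 487 and 509 in 8276OV. As with Uqcrh, the 5NC libraries were the low ones: the difference was 0.64 ± 0.048 (SE; adjusted p = 2.4e-07) against 5NC and 0.14 against 3NC (adjusted p = 0.017), and 8276KD and 3NC overlapped (0.043, adjusted p = 0.51).

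The small membrane subunits Cox6c, Cox7a2, Cox7b and Cox7c rose in both arms, by 0.60, 0.66, 0.73 and 0.70 in 8276OV and by 0.30, 0.20, 0.29 and 0.14 in 8276KD. The 8276KD call of Cox7c was lost after GC correction (0.072, adjusted p = 0.27). Cox7b, for example, read 126, 127 and 118 in 3NC, 107, 102 and 107 in 5NC, 151, 139.5 and 163 in 8276KD and 183, 163 and 182 in 8276OV. Its knockdown libraries were above all control libraries and its 8276OV libraries above those of 8276KD.

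Cox6a1, the ubiquitous isoform of a regulatory subunit, went the other way and read 481, 491 and 510.1 in 3NC, 602, 614 and 614 in 5NC, 433, 515 and 429.9 in 8276KD and 289.8, 366 and 331 in 8276OV. The 8276OV libraries were the lowest 3 and the 5NC libraries the highest 3; the log2 fold change was -0.90 ± 0.078 (SE; adjusted p = 5.9e-07), and that of 8276KD was -0.11 (adjusted p = 0.29). Cox4i1, the ubiquitous isoform of the largest nuclear subunit, was called lower in both arms (-0.27 in 8276OV and -0.18 in 8276KD), but after GC correction its 8276OV value turned to 0.31 and its 8276KD value was -0.088 (adjusted p = 0.061). Cox5b, which binds zinc, fell by 0.34 ± 0.072 (SE; adjusted p = 0.0022) in 8276KD, with a near copy that makes its reads uncertain.

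Cox4i2, the lung and hypoxia isoform, stayed at or below 0.240 and the testis isoforms Cox6b2 and Cox7b2 at or below 0.990 and 0.350. Of the COX7A family, Cox7a1, the muscle isoform, made up 5.24% ± 0.54 of the summed level in 3NC, 4.46% ± 0.72 in 5NC, 4.33% ± 0.96 in 8276KD and 2.77% ± 0.49 in 8276OV (SD, n = 3 each). Cox7a2l, which is known for its role in respiratory supercomplexes, rose by 0.25 in 8276OV and was 0.016 in 8276KD. Cox7a1 itself was -0.28 in 8276OV (adjusted p = 0.11) and the muscle isoform Cox6a2 -0.46 (adjusted p = 0.078), neither called.

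**Figure D3:**
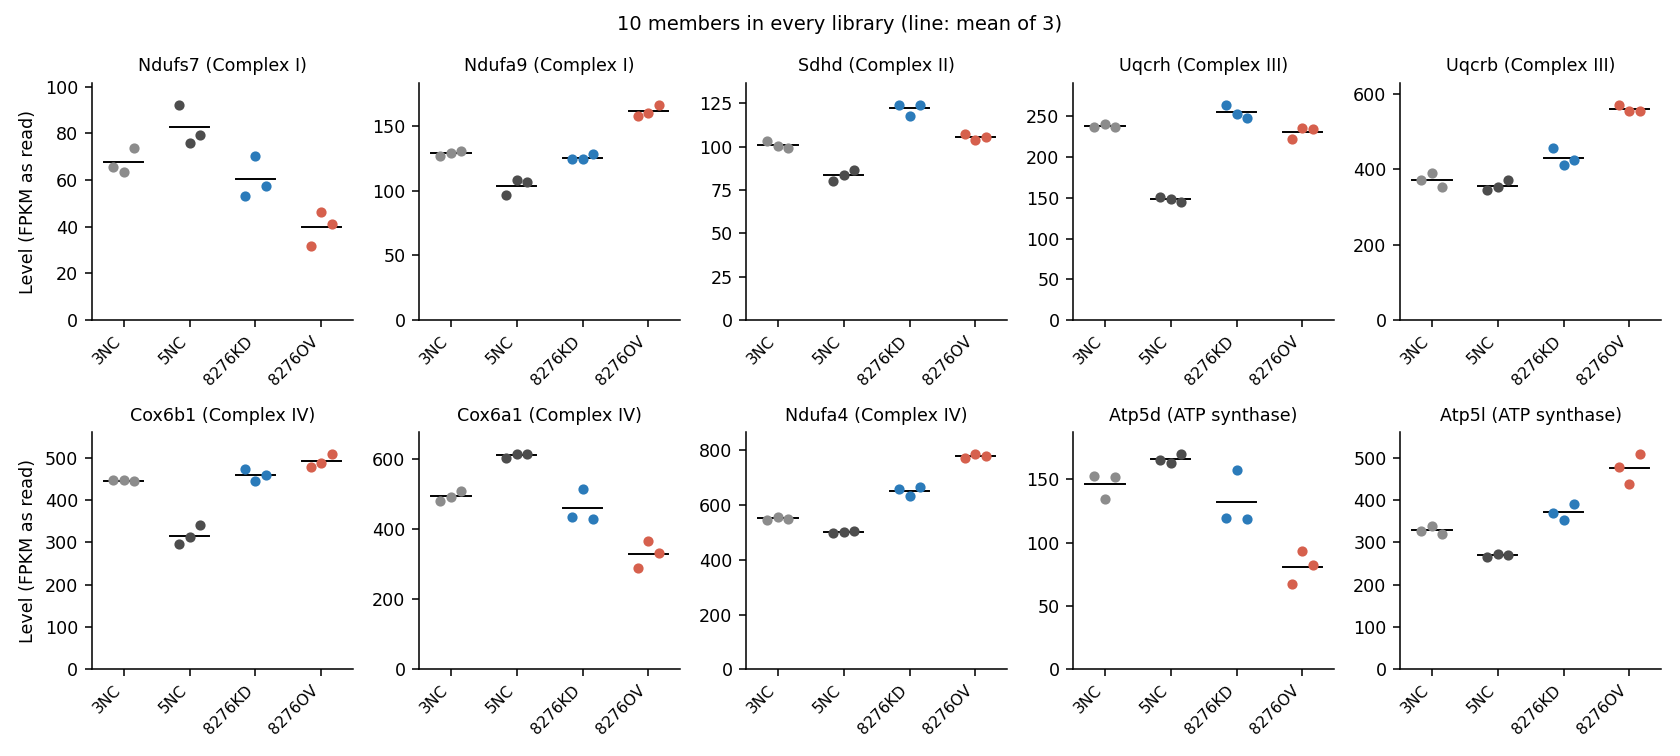
Levels of 10 members (vertical axes, FPKM as read, starting at 0) in every library; each point is a library and black lines are means of 3. Ndufs7, Atp5d and Cox6a1 are lowest in 8276OV, Uqcrb, Ndufa4, Ndufa9 and Atp5l highest there, and Uqcrh and Cox6b1 stand apart in 5NC (Uqcrh 146 to 151 against 222 or more elsewhere).

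ATP synthase consists of a catalytic F1 head, a rotating ring of c subunits in the membrane, a peripheral stalk and small membrane subunits that hold dimers together. Of its 17 genes, Atp5s included, 12 were higher and 5 lower in 8276OV (30.3% and 44.1% of all genes). In 8276KD 6 were higher and none lower (20.0% and 19.5%). The 8276KD counts became 2 and 1 after correction for GC content and length (25.4% and 23.6%). After quantile normalization they were 1 and 0 (20.3% and 18.7%). The 4 genes of the peripheral stalk (Atp5f1, Atp5h, Atp5j and Atp5o) were all higher in 8276OV (median log2 fold change 0.37), as were 4 small membrane subunits (Atp5j2, Atp5k, Atp5l and Atp5mpl; median 0.60), of which 3 were also higher in 8276KD. These role groups were drawn up after the values were known and are given as a description.

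Atp5l, which encodes the g subunit of the dimer interface, read 328, 339 and 320.0 in 3NC, 266, 272 and 271 in 5NC, 371, 352 and 392 in 8276KD and 478, 438 and 509 in 8276OV. Its order was 5NC, 3NC, 8276KD and 8276OV without overlap, with log2 fold changes of 0.81 ± 0.053 (SE; adjusted p = 9.4e-08) in 8276OV and 0.17 ± 0.053 (SE; adjusted p = 0.02) in 8276KD; 3 annotated near copies leave its reads uncertain. Atp5mpl, a very small membrane subunit, read 212, 235 and 215 in 3NC, 201, 179.6 and 192 in 5NC, 296, 278 and 331 in 8276KD and 315, 296 and 314 in 8276OV. Here 8276KD and 8276OV overlapped each other and lay above both controls, by 0.45 ± 0.063 (SE; adjusted p = 1.1e-04) and 0.69 ± 0.063 (SE; adjusted p = 8.5e-07). Atp5k, the e subunit of the dimer interface, rose by 0.51 in 8276OV and 0.24 in 8276KD.

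The F1 head was mixed. Atp5d, the delta subunit of the central stalk, read 152, 134 and 152 in 3NC, 165, 163 and 169.8 in 5NC, 119.6, 157 and 118 in 8276KD and 67.0, 93.4 and 82.3 in 8276OV. The 8276OV libraries were the lowest 3, a log2 fold change of -1.04 ± 0.11 (SE; adjusted p = 3.4e-06), while 8276KD overlapped 3NC, with replicate 2 at 157 and the other libraries at 118 and 120 (-0.16, adjusted p = 0.29). Atp5b fell by 0.27 in 8276OV, whereas Atp5c1, the gamma subunit, rose by 0.41 and Atp5e, the epsilon subunit, by 0.37. Atp5a1, the alpha subunit, was called lower (-0.098) but higher after GC correction (0.27).

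The c ring is built from identical proteins encoded by 3 genes that differ only in their targeting sequences. Their summed level was 1242 ± 22 in 3NC, 1220.5 ± 29 in 5NC, 1237 ± 57 in 8276KD and 1052 ± 61 in 8276OV (SD, n = 3 each). Atp5g2 held 44.7% ± 0.86, 49.96% ± 1.2, 44.3% ± 0.67 and 41.8% ± 0.13 of that sum in the same order, and Atp5g3 43.0% ± 1.1, 37.5% ± 1.5, 44.2% ± 1.7 and 46.9% ± 0.76. Atp5g1 stayed between 10.7% and 13.1% in every library. Atp5g2 was called lower in 8276OV than in 5NC (-0.47), but higher after GC correction (0.34).

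The 5NC and 3NC controls differed in many members. Of 79, 6 were higher and 28 lower in 5NC than in 3NC, against 30.6% and 25.9% of all genes, and after GC correction 6 and 34 of 78 (31.5% and 33.7%). The median log2 fold change was -0.071, against 0.022 for all genes, and the libraries did not overlap for 45 members, 13 of them higher and 32 lower in 5NC (37.6% and 31.9% of all genes). Large differences were those of Uqcrh (-0.68), Cox6b1 (-0.50), Ndufv3 (-0.38) and Ndufa8 (-0.38) among the lower. The members higher in 5NC included Ndufs8 (0.38), Cox6a1 (0.30), Atp5g2 (0.13), Atp5b (0.12) and the scarce Cox6a2, which did not pass 2.22 in any library (0.87). Cox7a2, Sdhd, Atp5h and Atp5l were also lower (-0.30, -0.27, -0.32 and -0.29); a near copy leaves Atp5h uncertain.

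This comparison shares the 5NC libraries with that of 8276OV and the 3NC libraries with that of 8276KD, so the values of a member in them are not independent. Members called in 8276OV against 5NC but not against 3NC included Uqcrh, Sdhd, Cox5a, Ndufa3, Ndufa11 and Ndufa12, and Atp5g3, higher by 0.11 against 5NC, was lower against 3NC (-0.11, adjusted p = 0.024). Against 3NC the rises of Atp5l (0.53), Ndufa4 (0.50), Ndufs4 (0.59) and Uqcrb (0.59) and the falls of Atp5d (-0.85), Ndufs7 (-0.77) and Cox6a1 (-0.59) stayed called.

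Across both arms, 19 members were higher in 8276OV than in 5NC and also higher in 8276KD than in 3NC, against 9.35% of all genes. They comprised 4 genes of complex I (Ndufb5, Ndufc1, Ndufs4 and Ndufv2), Sdhd, Uqcrb and Uqcrh, 6 of complex IV (Cox5a, Cox6c, Cox7a2, Cox7b, Cox7c and Ndufa4) and 6 of ATP synthase (Atp5e, Atp5f1, Atp5j, Atp5k, Atp5l and Atp5mpl). Cox4i1, Ndufa10 and Uqcr11 were lower in both (11.0% of all genes), and Cox8a was lower in 8276OV (-0.21) and higher in 8276KD (0.12; 5.49% of all genes went these ways), its 8276OV value turning to 0.40 after GC correction. After that correction 23 members were higher and 3 lower in both arms (9.53% and 8.1% of all genes), and 4 (Ndufb11, Ndufb9, Ndufv3 and Uqcr11) were higher in 8276OV and lower in 8276KD (4.62%). Rises in both arms cannot outnumber those in 8276KD, which were 12 after correction for GC content and length and 9 after quantile normalization.

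Each member's overexpression effect was also tested against its knockdown effect. It was positive, that is more upward in 8276OV, for 40 of 79 and negative for 16, against 24.5% and 36.2% of all genes, and after GC correction for 48 and 9 of 78 (24.8% and 24.8%). The largest positive differences were those of Ndufa9 (0.67), Atp5l (0.64), Cox6b1 (0.59), Cox7c (0.56) and Uqcrh (0.53), and the largest negative ones those of Atp5d (-0.88), Ndufs7 (-0.88), Cox6a2 (-0.82), Cox6a1 (-0.79) and Uqcrc1 (-0.66). Each such difference also contains the gap between 5NC and 3NC. Uqcrh averaged 231 in 8276OV and 255 in 8276KD, but 148 in 5NC and 238 in 3NC.

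The direction of a member in 8276OV went with the base composition of its transcript. GC content was found for 78 tested members, with a median of 51.1% against 50.1% for all genes, and their transcripts were short, with a median length of 870 bases against 3142. Of the 26 members with the lowest GC content (38.4% to 49.0%), 22 were higher and 4 lower in 8276OV than in 5NC. Of the middle 26, 17 were higher and 4 lower, and of the 26 highest (53.9% to 63.4%), 5 and 16. All genes tested moved the same way, with medians of 0.41, -0.12 and -0.54 in bins centred on 39%, 51% and 57% GC content. The shares of all genes called in these GC ranges were not counted. Across the 78 members Pearson's r between log2 fold change and GC content was -0.67 (Spearman's rho -0.64), and across 11197 genes it was -0.79; these points share the same 6 libraries. In 8276KD against 3NC the members' r was -0.42 and that of all genes -0.19, with 11 rises and no falls among the 26 lowest in GC content and 5 and 4 among the highest.

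**Figure D4:**
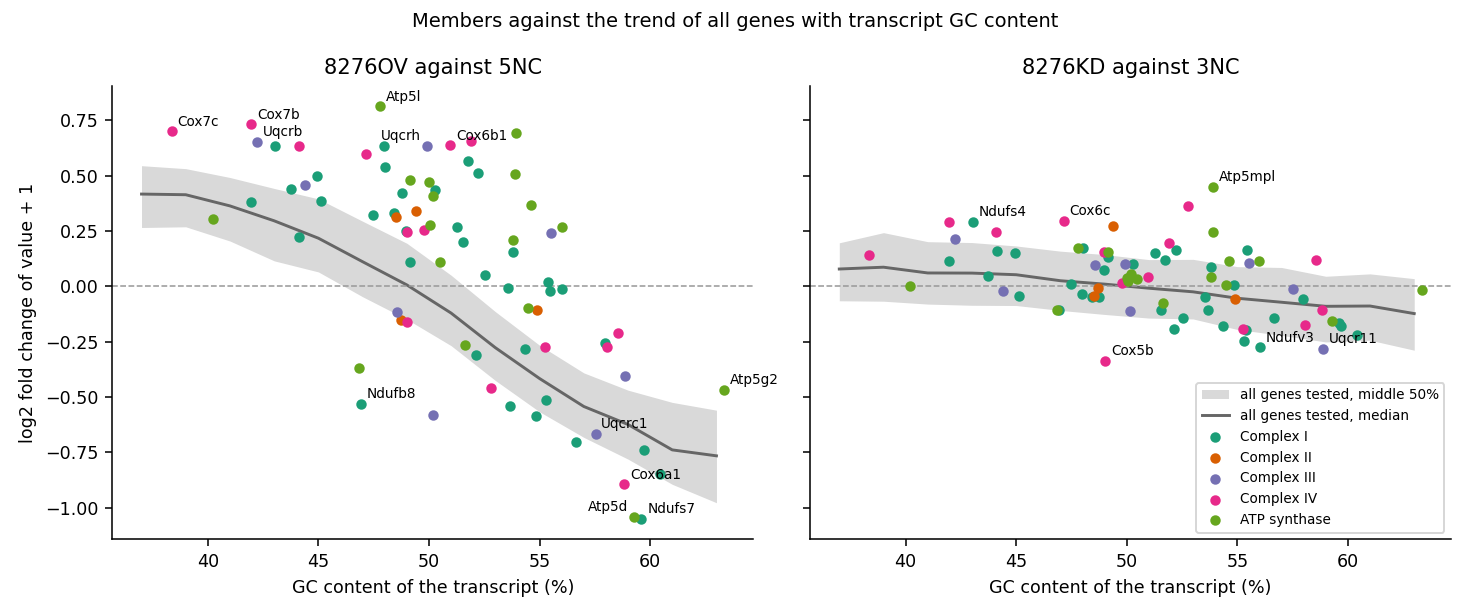
Log2 fold change of value + 1 (vertical axis) of the members, coloured by complex, against the GC content of the transcript (horizontal axis, percent), with the median (grey line) and middle 50% (grey band) of all genes tested. In 8276OV against 5NC all genes slope down and the members with them (r = -0.67), many lying above the band; in 8276KD against 3NC the slope is shallower.

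Coding sequences are shown for 6 members chosen after their values were seen, as examples of this trend. The first 120 bases of 3 that fell in 8276OV and 3 that rose are given 5′ to 3′ from the GENCODE M21 transcript, with the start codon in capitals, and the gene's span in GRCm38 (mm10) and strand beside the name. GC content of the printed stretch was 72.5% for Cox6a1, 71.7% for Atp5d and 70.8% for Uqcrc1, against 44.2% for Uqcrb, 50% for Cox7b and 51.7% for Ndufa4. The ranges of the whole set overlapped: over the same stretch the 43 members called higher with such a sequence had a median of 55.8% (35.8% to 71.7%, with Cox5a at the top) and the 19 called lower 66.7% (53.3% to 76.7%). Over the whole coding sequence the 6 examples had 64.9%, 61.9%, 57.0%, 42.9%, 47.5% and 48.8%.
Cox6a1 (chr5:115345652-115348958, minus strand): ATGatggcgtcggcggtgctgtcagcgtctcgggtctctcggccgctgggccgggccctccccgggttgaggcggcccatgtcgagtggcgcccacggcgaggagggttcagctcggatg
Atp5d (chr10:80138698-80145828, plus strand): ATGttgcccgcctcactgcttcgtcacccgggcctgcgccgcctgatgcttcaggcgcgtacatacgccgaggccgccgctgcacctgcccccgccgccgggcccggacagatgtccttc
Uqcrc1 (chr9:108936648-108949641, plus strand): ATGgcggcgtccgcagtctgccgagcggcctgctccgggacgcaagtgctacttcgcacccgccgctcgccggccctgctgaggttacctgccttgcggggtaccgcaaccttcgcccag
Uqcrb (chr13:66900576-66905350, minus strand): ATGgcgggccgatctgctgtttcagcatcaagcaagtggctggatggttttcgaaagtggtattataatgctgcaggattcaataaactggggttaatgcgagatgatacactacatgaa
Cox7b (chrX:106015700-106022450, plus strand): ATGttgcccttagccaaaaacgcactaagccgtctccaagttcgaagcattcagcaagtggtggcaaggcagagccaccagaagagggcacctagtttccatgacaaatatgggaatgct
Ndufa4 (chr6:11900372-11907450, minus strand): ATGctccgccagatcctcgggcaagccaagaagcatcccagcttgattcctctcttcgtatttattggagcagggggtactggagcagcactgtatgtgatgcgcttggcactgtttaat

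The trend differed between single libraries of a group. The slope of all genes' deviations from their means per 10 points of GC content was 0.11 to 0.16 in 3NC, 0.15 to 0.21 in 5NC and -0.48 to -0.24 in 8276OV. In 8276KD it was -0.044, 0.19 and -0.0027, the second of these being replicate 2, which read higher than its group for Ndufs7, Cox6a1, Atp5d and Uqcrc1. With the trend removed from each library, 55 of the 68 members called in 8276OV kept their direction, 7 were no longer called, 7 others became called and 6 turned to the opposite direction (Atp5a1, Atp5g2, Cox4i1, Cox8a, Ndufa11 and Uqcr11, all from lower to higher). In the knockdown comparison 23 of the 27 called members with a known GC content kept their direction, 4 were no longer called and 10 became called. The corrected medians in 8276OV were 0.28 for complex I, 0.28 for complex II, 0.23 for complex III, 0.30 for complex IV and 0.47 for ATP synthase.

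**Figure D5:**
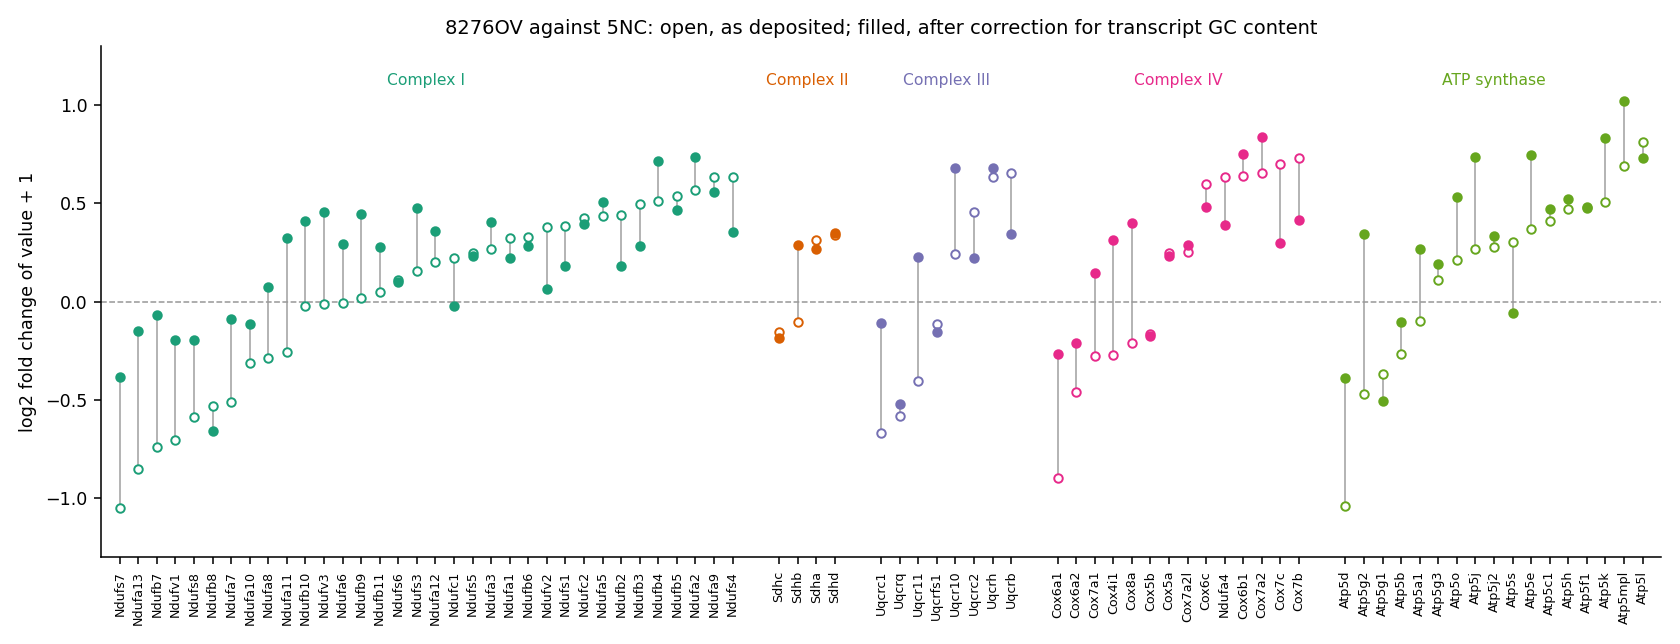
Log2 fold change of value + 1 (vertical axis) in 8276OV against 5NC for 77 members with a known GC content, by complex; open circles are the values as deposited and filled circles those after correction for transcript GC content. Most GC-rich members move up, Atp5g2 from -0.47 to 0.34, while Ndufs7 and Atp5d stay below 0 at -0.38 and -0.39.

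Members whose fall stayed called after correction were led by Ndufb8 (-0.66, from -0.53), Uqcrq (-0.52), Atp5g1 (-0.50), Atp5d (-0.39) and Ndufs7 (-0.38). The highest corrected rises were those of Atp5mpl (1.02), Cox7a2 (0.84), Atp5k (0.83) and Cox6b1 (0.75). The correction used the GC content of the whole transcript, which for some of these differs from that of the coding sequence: 46.9% of the transcript against 57.7% of the coding sequence for Ndufb8, 50.2% against 57.7% for Uqcrq, 46.8% against 56.9% for Atp5g1 and 53.9% against 43.7% for Atp5mpl. With the GC content of the coding sequence the members' r in 8276OV was -0.74. Among the role groups the corrected medians were -0.19 for the core and 0.29 for the accessory subunits of complex I, 0.27 for the F1 head, 0.19 for the c ring, 0.53 for the peripheral stalk and 0.78 for the small membrane subunits of ATP synthase. Outside the rule for named genes, Ndufa4, Uqcrc2, Cox5a, Cox8a, Ndufa3, Ndufa10, Ndufa11, Ndufa12, Ndufb4, Ndufb5, Ndufb8, Ndufb9, Ndufb11, Ndufs3, Ndufv2, Atp5c1, Atp5e, Atp5f1, Atp5g1, Atp5g3, Atp5j, Atp5j2 and Atp5o were named after their values were seen.

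Promoters were searched for the letters of 3 factors known to act on respiratory genes, on both strands of the 250 bases before to 50 after the start in RefSeq (GRCm38.p6), which held 68 of the 85 members. The NRF1 letters GCATGCGC, whose occurrences on opposite strands can overlap, were in 10 of 68 member promoters (14.7%), against 6.37% of the promoters of genes tested and 3.05% of all. The YY1 letters AAGATGGC were in 10 (14.7%, against 5.56% and 3.19%), and the ETS letters CCGGAAGT, a binding core of GABPA, in 5 (7.35%, against 9.72% and 4.31%). By direction in 8276OV, the NRF1 letters stood in 2 of 38 promoters of members called higher, 6 of 19 called lower and 2 of 8 not called, and the YY1 letters in 7, 2 and 1. These calls are those before GC correction. After it, Atp5g2 and Ndufa11, which hold the NRF1 letters and were called lower, were called higher. Over all tested genes with a promoter in that table the NRF1 letters stood in 7.09%, 6.07% and 6.04% of those called higher, lower and neither, and the YY1 letters in 5.78%, 5.45% and 5.48%. The 120 bases before the start are shown for a member called lower (Atp5g2), a member called higher (Atp5k) and Sdhb, which was not called, with the NRF1 letters in capitals.
Atp5g2 (chr15:102671048-102671167, minus strand): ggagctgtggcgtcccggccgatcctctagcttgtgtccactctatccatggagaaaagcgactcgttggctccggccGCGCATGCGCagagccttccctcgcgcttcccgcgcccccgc
Atp5k (chr5:108434400-108434519, minus strand): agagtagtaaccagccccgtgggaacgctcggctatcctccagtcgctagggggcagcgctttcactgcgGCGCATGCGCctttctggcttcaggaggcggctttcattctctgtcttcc
Sdhb (chr4:140961151-140961270, plus strand): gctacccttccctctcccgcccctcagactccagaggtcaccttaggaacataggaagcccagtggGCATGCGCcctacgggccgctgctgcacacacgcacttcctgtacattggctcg

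Genes that work beside the members were taken from lists. Of all genes tested, 30.3% were higher and 44.1% lower in 8276OV, 20.0% and 19.5% in 8276KD, and 30.6% and 25.9% in 5NC against 3NC. Of 10 subunits and carriers outside the naming patterns, 8 were in the table and tested, with 5 higher and 2 lower in 8276OV (median 0.16), 3 higher and none lower in 8276KD, and 1 higher and 4 lower in 5NC than in 3NC. Usmg5, a small ATP synthase subunit, went from 398 ± 13 in 5NC to 695 ± 44 in 8276OV (log2 fold change 0.80) and from 488 ± 2.2 in 3NC to 630.5 ± 34 in 8276KD (0.37; SD, n = 3 each). Cycs, cytochrome c itself, went from 79.7 ± 2.5 to 129 ± 7.7 (0.69) and from 89.5 ± 2.0 to 118 ± 11 (0.39). Cyc1, the cytochrome c1 of complex III, fell from 146 ± 8.2 to 84.5 ± 9.2 in 8276OV (-0.79, and -0.34 after GC correction). Atpif1, also called Atp5if1, the inhibitor of ATP synthase, rose from 72.7 ± 2.9 to 81.9 ± 1.6 in 8276OV (0.17, and 0.42 after GC correction) and was 0.14 in 8276KD (limma adjusted p = 0.072).

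Assembly factors were taken by complex. Their counts stand beside 30.3% higher and 44.1% lower of all genes in 8276OV, and 20.0% and 19.5% in 8276KD. Of 17 tested for complex I, 8 were higher and 3 lower in 8276OV and 3 and 3 in 8276KD, with Tmem126b (0.64) and Ndufaf1 (0.48) among the higher and Ndufaf8 (-0.83) among the lower in 8276OV. The 4 factors of complex II gave 2 rises and 1 fall in 8276OV and 2 rises in 8276KD, where Sdhaf4, which promotes assembly of the catalytic dimer, went from 17.4 ± 0.67 to 27.9 ± 1.6 (0.65; SD, n = 3 each). Of 6 for complex III, 1 was lower in 8276OV (Uqcc2, -0.46, turning to 0.16 after GC correction) and 1 was higher and 3 lower in 8276KD. Of 24 for complex IV, 7 were higher and 6 lower in 8276OV and 7 and 1 in 8276KD. The copper chaperone Cox17 rose by 0.48 and Cox18 fell by 0.77 in 8276OV. Higd1a, a hypoxia-inducible gene, was lower in 5NC than in 3NC (-0.82). Of the 3 for ATP synthase, Atpaf2 (-0.50) and Atpaf1 (-0.21) fell in 8276OV. Cox8b, which had been listed by name, and the 13 subunits encoded in mitochondrial DNA were not analysed here.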

How the data were processed

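RNA-seq values of 12 libraries of C18-4 cells (3 per group) were taken from the deposited table, 1 value per gene and library for 17576 genes. The authors' values were read as FPKM from their range and from column sums that differ between libraries; the unit is not stated in the table, and TPM after removal of genes would look alike, in which case ratios between libraries would still hold up to a factor per library. Per the submitters' processing notes the genome build was mm10. For the aligner, the counter and the strand setting, nothing is given in the sources used here.

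Values were analysed as log2(value + 1), so fold changes of low genes are understated. Genes that reached 1 in 3 or more libraries (11360, of which 79 members) entered 1 limma fit (version 3.58.1, R 4.3.3) over all 4 groups, with a trended, robust prior variance, two-sided tests and Benjamini-Hochberg adjustment over all genes tested; the threshold was an adjusted p of 0.05. Summed levels were compared by exact permutation tests (scipy 1.17.1). The fit was also run on simulated data, the outcome of which is not given here. The simulated GC trend was a straight line on the same GC content that the correction uses. That run therefore cannot show how the correction does with trends of another kind. GC correction removed from each library a natural spline (5 degrees of freedom) of log2 value on the GC content of the longest protein-coding GENCODE M21 transcript, known for 11197 tested genes and 78 members. Replicate numbers did not pair the libraries (correlations of same-numbered deviations -0.18 to 0.088).

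The members and lists were chosen with earlier results of these data known. Genes were named by rule: for each comparison and complex up to 2 rises and 2 falls, the largest of called members with non-overlapping groups and a mean of at least 1, the 5 largest differences of effects in each direction, a list of subunits and isoforms by name, and up to 3 called genes with the smallest p per pathway list. The values of 1 named subunit are not reported here. Alternatives covered the pseudocount, the filter, scaling, GC content and length, the control group, the groups fitted, a replicate block and leaving out each library. Of the 17576 genes 17458 matched a RefSeq entry. The table gave no counts, so the depth given is an estimate and no counting interval was computed.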

Additional observations from a re-analysis of the deposited data

Results flagged for a closer look

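For 40 named members the effect of 8276OV over 5NC was compared with that of 8276KD over 3NC in the joint limma fit, and for 29 the 2 effects differed at an adjusted p under 0.05. Members were named partly for large changes or differences, so this count is a description. Of all genes tested 24.5% had a positive and 36.2% a negative difference. A difference of effects also contains the gap between 5NC and 3NC. After GC correction 22 of the 29 differed, 21 of them in the same direction and Atp5g2 in the opposite one, 6 were no longer called, and Ndufb4c has no GC value.

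The effect was more upward in 8276OV, in log2 units, for Ndufa9 (0.67), Ndufb4c (0.47), Ndufs1 (0.43) and Ndufs4 (0.34) of complex I, Sdha (0.35) of complex II, and Uqcrh (0.53) and Uqcrb (0.44) of complex III. In complex IV it was so for Cox6b1 (0.59), Cox7c (0.56), Cox7a2 (0.46), Cox7b (0.44), Cox6c (0.30) and Cox7a2l (0.24), and in ATP synthase for Atp5l (0.64), Atp5h (0.43), Atp5k (0.26) and Atp5mpl (0.24).

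It was more downward in 8276OV for Ndufs7 (-0.88), Ndufa13 (-0.63), Ndufs8 (-0.59) and Ndufv1 (-0.56) of complex I, and for Uqcrc1 (-0.66), Uqcrq (-0.47) and Uqcrfs1 (-0.21) of complex III. The same held for Cox6a2 (-0.82) and Cox6a1 (-0.79) of complex IV, and for Atp5d (-0.88), Atp5g2 (-0.45) and Atp5b (-0.19) of ATP synthase. The difference of Atp5g2 turned to 0.26 after GC correction.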

How the results depend on the processing

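The counts of members and their medians were recomputed under each alternative, and the cause of the changes listed was not tested. Those with GC correction beside a replicate block or another control, and with the longest transcript of any type, were chosen after seeing the data.

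In 8276OV against 5NC the 24 falls became 15 with GC correction, 14 with the replicate block and GC correction, 12 with 3NC as the control and GC correction and 14 with both controls and GC correction. The median of 0.223 became 0.155 without a filter, 0.314 with median-of-ratios factors, 0.0968 with quantile normalization, 0.289 with GC correction, 0.144 with GC and length correction, 0.301 with the longest transcript of any type and 0.289 with the replicate block and GC correction. With 3NC as the control it was 0.104, with GC correction as well 0.153, and with both controls 0.180. Leaving out a library gave 42 to 44 rises, 21 to 25 falls and medians of 0.206 to 0.249.

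In 8276KD against 3NC the 20 rises became 9 with quantile normalization, 12 with GC and length correction, 35 with 5NC as the control (44 with GC correction) and 32 with both controls (36 with GC correction). The 8 falls became 15, 16, 16 (13 with GC correction) and 15. The median of 0.0157 became 0.108 with 5NC as the control, 0.156 with GC correction as well and 0.0819 with both controls and GC correction. Leaving out a library gave 12 to 20 rises and 4 to 20 falls; the 20 falls arose without 8276KD replicate 2.

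In 5NC against 3NC the 6 rises became 15 when only these groups were fitted and 4 to 7 when a library was left out, with 23 to 27 falls. The median of -0.0711 became -0.0997 with median-of-ratios factors, -0.0946 with GC correction, -0.0927 with the longest transcript of any type and -0.0946 with the replicate block and GC correction, and ran from -0.0962 to -0.0567 when a library was left out.

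For the difference of effects the 16 negative calls became 9 with GC correction, 10 with GC and length correction, 8 with the longest transcript of any type and 9 with the replicate block and GC correction. The median of 0.176 became 0.264 with median-of-ratios factors and 0.0972 with GC and length correction. Leaving out a library gave 36 to 40 positive and 14 to 19 negative calls and medians of 0.156 to 0.188. The replicate block alone gave 44 and 25 calls in 8276OV, 19 and 9 in 8276KD, 5 and 28 in 5NC and 41 and 16 for the difference; the numbers do not pair the libraries.

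Some named members changed direction in 8276OV against 5NC. In the order GC correction, GC and length correction, longest transcript of any type, replicate block with GC correction, 3NC as the control with GC correction and both controls with GC correction, Atp5a1 gave 0.269, 0.266, 0.292, 0.269, 0.207 and 0.238, Atp5g2 0.344, 0.181, 0.335, 0.344, 0.350 and 0.347, Cox4i1 0.313, 0.140, 0.318, 0.313, 0.339 and 0.326, and Sdhb 0.290, 0.220, 0.214, 0.290, 0.262 and 0.276. With 3NC as the control and GC correction Cox6a2 gave 0.605 and Uqcrh -0.0338, and Uqcrh without correction -0.0453. In 8276KD, Ndufv3 gave 0.108 with 5NC as the control, 0.235 with GC correction as well and 0.0130 with both controls and GC correction, and Uqcr11 0.0308 with 5NC and GC correction. For the difference of effects, in the first 4 of the orders above, Atp5a1 gave 0.218, 0.224, 0.237 and 0.218, Cox4i1 0.401, 0.266, 0.409 and 0.401, and Sdhb 0.298, 0.247, 0.239 and 0.298.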

Other observations

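Genes that feed or regulate the chain were described from lists. Of all genes tested, 30.3% were higher and 44.1% lower in 8276OV, 27.1% and 27.2% after GC correction, and 20.0% and 19.5% in 8276KD. Of 13 genes of coenzyme Q synthesis, 2 were higher and 7 lower in 8276OV than in 5NC (median log2 fold change -0.22), and 4 were higher and 3 lower after GC correction (median -0.03). Coq10b, which binds coenzyme Q, rose by 0.52, while Coq9 (-0.70) and Coq2 (-0.61), the enzyme that attaches the isoprenoid tail, fell. In 8276KD 3 were higher and 2 lower.

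Of 17 genes of the citric acid cycle and pyruvate dehydrogenase, 8 were higher and 7 lower in 8276OV (30.3% and 44.1% of all genes). After GC correction 9 were higher and 3 lower (27.1% and 27.2%), and in 8276KD 2 and 1 (20.0% and 19.5%). Idh3a, of the NAD-dependent isocitrate dehydrogenase, rose by 0.54 in 8276OV and 0.22 in 8276KD, and Dld, which is shared by several dehydrogenase complexes, rose by 0.59 in 8276OV, where Idh2, the NADP-dependent enzyme, fell (-0.64).

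Of 15 tested regulators of mitochondrial genes, 6 were higher and 7 lower in 8276OV (30.3% and 44.1% of all genes). After GC correction 8 were higher and 3 lower (27.1% and 27.2%), and in 8276KD 1 and 3 (20.0% and 19.5%). Tfam, which packages mitochondrial DNA, went from 36.5 in 5NC to 53.9 in 8276OV (0.55), and Ssbp1, a mitochondrial single-strand binding protein, rose by 0.51. Esrra, a nuclear receptor known for acting on respiratory genes, went from 16.4 to 8.03 (-0.96, and -0.20 after GC correction). In 8276KD Polrmt, the mitochondrial RNA polymerase, was lower (-0.29), as were Nrf1 (-0.24) and Gabpb1 (-0.23), which are both known for roles in the transcription of respiratory genes.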
